A study of Mus musculus with 16 samples.

Results

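The type 1 axis of T cells was followed here through 7 genes, chosen by name: Ifng, Tbx21, Stat4, Il12rb1, Il12rb2, Il18r1 and Il18rap. Each had 1 probe set that the platform annotation assigns to it alone, so all 7 of 7 were measured, among 19938 genes in all. Interferon gamma (IFN-γ), the product of Ifng, is the signature cytokine of type 1 immunity and a main effector cytokine of CD8 T cells. IL-12 binds a receptor of the chains Il12rb1 and Il12rb2 and activates the transcription factor STAT4, which acts on Ifng together with T-bet, the product of Tbx21 and the factor that defines the type 1 programme. IL-18 binds Il18r1, needs the accessory chain Il18rap to signal through MyD88, and acts with IL-12 to raise IFN-γ output. NFAT, activated by the phosphatase calcineurin after T cell receptor engagement, is the other well known input to Ifng, and cyclosporine A (CsA) blocks this step by inhibiting calcineurin.

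The 16 arrays came from 4 groups of 4. These were the unconventional mouse CD8 T cell clone, labelled cyclosporine-resistant, with CsA and without it, and the conventional clone, labelled cyclosporine-sensitive, with CsA and without it. All 4 groups had been activated with immobilized anti-CD3 antibody in medium free of recombinant cytokines, and CsA was used at 1 ug/ml. Both clones had been grown beforehand in a mixture that held IFN-g itself next to IFN4-α, TNF-α, IL-15, IL-7, IL-6 and IL-1a, per the labels, with IL-12 and IL-18 not named in it. Each cell type is a single clone, so a difference between clones is a difference between these 2 lines and not between classes of cell. Unstimulated cells were not analysed here, and the length of activation is not given in the sources used here. Whether the 4 replicates of a group were separate cultures is not stated either, so each p-value reflects variation among these arrays alone, possibly of technical origin.

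Levels below are log2 expression values per probe set, given per array in the order of replicates 1 to 4, and a change is the log2 difference between group means with its standard error (SE). A gene was called where limma, fitted over all 19938 genes, gave a Benjamini-Hochberg adjusted p under 0.05. The deposited values ran from 2.08 to 14.55, and the lower quartile of gene means was 4.11, a range where background dominates and differences shrink. Arrays of 1 group correlated at 0.9947 to 0.998. The T cell genes Cd3d, Cd3e and Cd3g lay between 10.52 and 12.74 in all group means. Cd247, also a T cell gene, lay between 8.83 and 9.88. It was lower in the unconventional clone, with clone differences of -1.06 with CsA and -0.69 without (both called). With CsA it changed by -0.26 (called) in the unconventional clone and 0.11 (not called) in the conventional clone. The co-receptor chain Cd8a lay at 8.56 and 10.31 in the unconventional clone with and without CsA, and at 11.92 and 12.50 in the conventional clone. Its partner chain Cd8b1 differed between the clones by -2.04 with CsA and -2.08 without. Cd4 lay between 4.21 and 4.32. Of 11 macrophage and dendritic cell markers, 10 had no group mean above 4.86, and Cd68 was the exception (9.13 and 8.71 in the unconventional clone with and without CsA, 8.05 and 7.26 in the conventional clone). Of 6 B cell markers measured, the highest group mean was 5.50, for Blk. The summed level of 6 NK cell markers was 7.54 to 7.87 on the unconventional arrays and 11.39 to 11.82 on the conventional arrays, mostly through Klri2. That of 5 CD4 and regulatory T cell markers was 7.84 to 8.19 on the unconventional arrays, 7.92 to 8.06 with CsA in the conventional clone and 9.48 to 9.64 without it there, mostly through Ikzf4. Of 9 commonly used reference genes, 3 rose and 1 fell with CsA in the unconventional clone, beside 12.6% and 12.3% of all genes. In the conventional clone 1 rose and 2 fell, beside 15.9% and 15.5%. Their medians were 0.09 and 0.02, beside 0.02 over all genes in both. The largest of these changes was that of Gusb, at -0.84 in the conventional clone, against 0.44 in the unconventional clone (both called). The part of the markers in the results below was not tested. In RNA from a population of cells, fewer producing cells and less RNA per cell cannot be told apart.

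CsA lowered Ifng in both clones, and further in the unconventional clone, the one labelled resistant. In unconventional cells Ifng stood at 7.47, 8.05, 8.03 and 8.19 with CsA, against 13.09, 13.21, 13.23 and 13.32 with anti-CD3 alone. The groups lay far apart. The change was -5.28 (SE 0.11, 95% interval -5.51 to -5.05, adjusted p = 2.82e-17), a 38.9-fold fall and the 4th largest of the 19938 genes in that clone. Conventional cells had 10.55, 10.69, 10.44 and 10.52 with CsA, against 14.01, 13.99, 13.99 and 13.95 with anti-CD3 alone. Here too the groups were far apart, and the change was -3.43 (SE 0.11, 95% interval -3.66 to -3.20, adjusted p = 8.4e-15), a 10.8-fold fall and the 23rd largest in that clone. The difference of the drug's effects, unconventional minus conventional, was -1.85 (SE 0.16, adjusted p = 5.9e-08). Every array with CsA was still well above the lower quartile of gene means.

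The order of Ifng levels was therefore conventional without CsA, unconventional without CsA, conventional with CsA and unconventional with CsA, from high to low. All 3 pairs of neighbours in this order differed by limma. Without the drug the unconventional clone was lower by a modest amount, at -0.77 (SE 0.11, adjusted p = 8.87e-06), a 1.71-fold difference. With CsA the clone difference was -2.62 (SE 0.11, adjusted p = 1.09e-13), or 6.14-fold. The untreated levels, up to 14.01, lie near the highest deposited value of 14.55, where probe signals tend to flatten. The untreated clone difference and the falls in both clones may therefore be understated, the conventional one most, which bears on the difference of effects too. An exact two-sided permutation test of each of these 4-against-4 comparisons gave p = 0.0286, the smallest value that this design allows.

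The bases just upstream of Ifng are shown because its fall under CsA was the largest of the 7 genes and NFAT is the drug's best known route to the gene. They are the 250 bases before the RefSeq start, chr10:118440796-118441045 on the plus strand of GRCm38.p6. Capitals mark each match to GGAAA, the core that NFAT proteins bind, or its reverse complement, searched on both strands.
Ifng: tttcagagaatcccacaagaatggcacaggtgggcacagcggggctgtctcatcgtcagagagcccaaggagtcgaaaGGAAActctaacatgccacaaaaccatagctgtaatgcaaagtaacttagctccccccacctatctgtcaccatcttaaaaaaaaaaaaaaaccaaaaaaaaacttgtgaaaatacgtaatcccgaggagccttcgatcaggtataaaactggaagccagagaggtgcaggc
The 1 match lay at positions -172 to -168, counted from the start. Among 27025 genes with an entry, 55.6% held this short motif in the same window, so a match is a description and not evidence of a site. No match was found to TGANTCA, the AP-1 motif (6.87% of windows), or to GGTGTG and TCACAC, parts of the T-box motif that T-bet binds (16.2% and 12.2%).

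**Figure D1:**
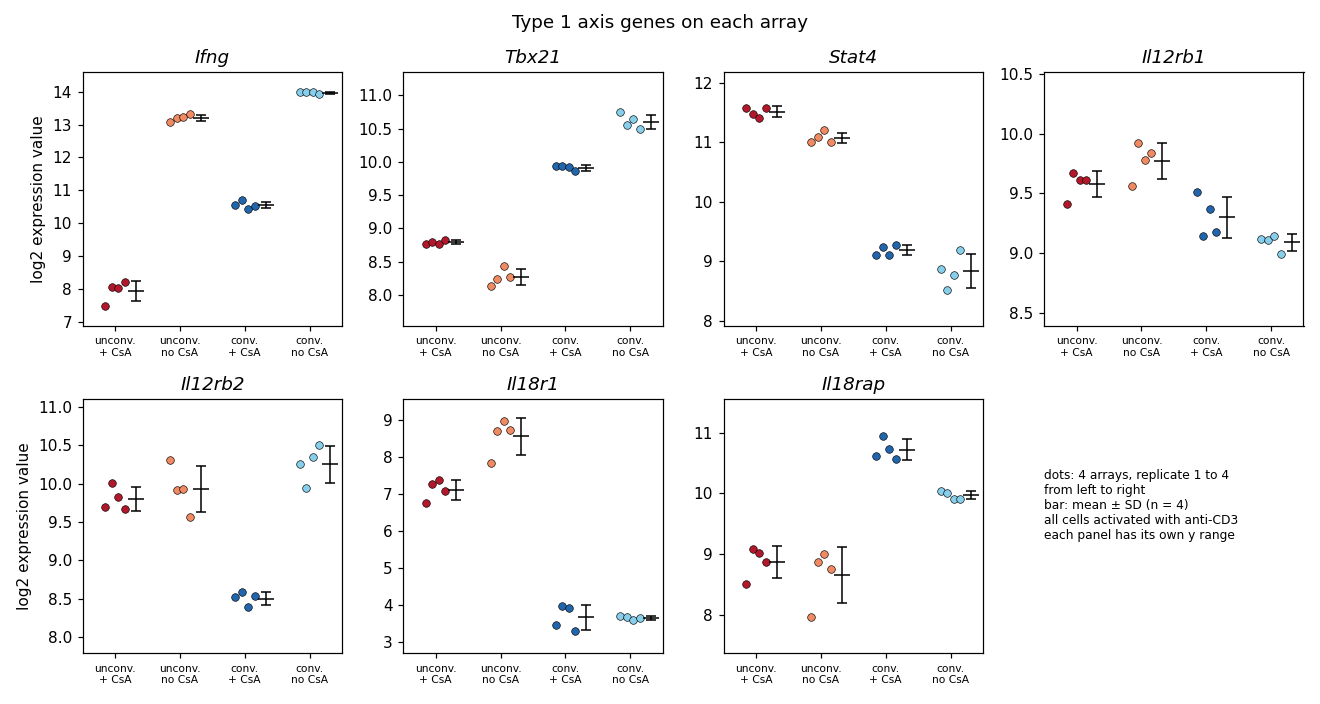
Log2 expression values of the 7 type 1 axis genes on each of the 16 arrays (dots, replicates 1 to 4 from left to right) with mean ± SD (bars, n = 4), for the unconventional and the conventional clone with and without CsA. Ifng falls in both clones to separate levels, Tbx21 moves in opposite directions, and Il18r1 lies between 3.31 and 3.97 on all 8 conventional arrays.

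Tbx21 responded in opposite directions in the 2 clones. In unconventional cells it had 8.76, 8.80, 8.76 and 8.83 with CsA, against 8.14, 8.24, 8.44 and 8.27 without it. These arrays did not overlap, and Tbx21 rose by 0.51 (SE 0.07, adjusted p = 1.49e-05), or 1.43-fold. In conventional cells it had 9.94, 9.94, 9.92 and 9.86 with CsA, against 10.75, 10.55, 10.64 and 10.49 without it. There it fell, with a change of -0.69 (SE 0.07, adjusted p = 1.56e-07), or 1.62-fold. The difference of effects was 1.21 (SE 0.10, adjusted p = 5.44e-08). Ifng thus fell more in the clone in which Tbx21 rose, and the 2 measurements are given side by side with no link tested. The unconventional clone had less Tbx21 in both conditions, with a clone difference of -1.13 with CsA (adjusted p = 5.67e-11) and of -2.33 with anti-CD3 alone (adjusted p = 1.15e-15, 5.03-fold). All neighbours in the order of its 4 levels differed by limma.

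The Tbx21 window, chr11:97115332-97115581 on the minus strand of GRCm38.p6, is shown beside that of Ifng because the 2 genes parted in the unconventional clone. It has the same marking.
Tbx21: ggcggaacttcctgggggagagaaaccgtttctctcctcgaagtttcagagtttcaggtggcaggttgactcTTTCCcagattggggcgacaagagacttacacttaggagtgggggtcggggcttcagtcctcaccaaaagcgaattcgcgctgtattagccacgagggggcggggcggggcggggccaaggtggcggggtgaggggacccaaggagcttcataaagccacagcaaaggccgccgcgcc
It too held 1 match to GGAAA, on the opposite strand, at positions -178 to -174, and none to the other 3 motifs. At this resolution the windows of a gene that fell in both clones and of a gene that moved in opposite directions had equal counts of each motif searched.

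Stat4 was raised slightly by CsA in both clones and differed mainly between the clones. Unconventional cells had 11.58, 11.47, 11.41 and 11.58 with CsA, against 11.01, 11.08, 11.20 and 11.00 without it, a rise of 0.44 (SE 0.10, adjusted p = 0.0028). Conventional cells had 9.11, 9.25, 9.11 and 9.28 with CsA, against 8.87, 8.52, 8.78 and 9.19 without it, a rise of 0.35 (SE 0.10, adjusted p = 0.0134). The conventional groups overlapped, the exact permutation test gave p = 0.0857 there, and the call was lost without conventional anti-CD3 replicate 2 (0.24, adjusted p = 0.0655) or in a fit of these 8 arrays alone (adjusted p = 0.0577). The difference of effects was 0.10 (95% interval -0.21 to 0.40, adjusted p = 0.783). Every unconventional array lay above every conventional one. The clone difference was 2.33 (SE 0.10, adjusted p = 2.35e-13) with CsA and 2.23 (SE 0.10, adjusted p = 7.07e-13) with anti-CD3 alone.

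The IL-12 receptor chains behaved differently from each other. Il12rb2, the signalling chain whose presence limits IL-12 responses, was lowered by CsA in conventional cells. They had 8.52, 8.58, 8.39 and 8.53 with the drug, against 10.25, 9.94, 10.34 and 10.50 without it, a change of -1.75 (SE 0.13, 95% interval -2.02 to -1.48, adjusted p = 1.56e-09), or 3.36-fold. Unconventional cells had 9.70, 10.01, 9.83 and 9.67 with the drug, against 10.31, 9.92, 9.93 and 9.56 without it. These groups overlapped, and the change of -0.13 was not called (95% interval -0.40 to 0.15, adjusted p = 0.596). The clones did differ in this response, with a difference of effects of 1.62 (SE 0.18, adjusted p = 2.45e-06). With CsA the unconventional clone had more Il12rb2, by 1.30 (SE 0.13, adjusted p = 5.66e-08). With anti-CD3 alone the clone difference of -0.32 was not called (adjusted p = 0.0531), although 7 of 25 alternative settings did call it. In the order of its levels, only the conventional clone with CsA stood apart from its neighbour.

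Il12rb1, the chain shared with the IL-23 receptor, changed little. Unconventional cells had 9.41, 9.67, 9.61 and 9.61 with CsA, against 9.56, 9.92, 9.78 and 9.84 without it (-0.20, SE 0.09, adjusted p = 0.139). Conventional cells had 9.51, 9.14, 9.37 and 9.18 with CsA, against 9.12, 9.11, 9.14 and 8.99 without it (0.21, SE 0.09, adjusted p = 0.0953), and these groups touched at 9.14. Neither change was called, but the difference of effects was, at -0.41 (SE 0.13, adjusted p = 0.036). That call was weak. It was lost in 12 of 24 alternatives, with values of -0.42 to -0.34 in them. Of these, 10 left out 1 array: conventional CsA replicate 1 or 3, conventional anti-CD3 replicate 2 or 4, unconventional CsA replicate 1, 3 or 4, or unconventional anti-CD3 replicate 2, 3 or 4. With the replicate number as a block the adjusted p was 0.054. The unconventional clone was higher with anti-CD3 alone, by 0.68 (SE 0.09, adjusted p = 3.73e-06), and with CsA by 0.27 (SE 0.09, adjusted p = 0.0195). The call with CsA was lost without conventional CsA replicate 2 (0.22) or 4 (0.23), or without unconventional CsA replicate 2 (0.24).

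**Figure D2:**
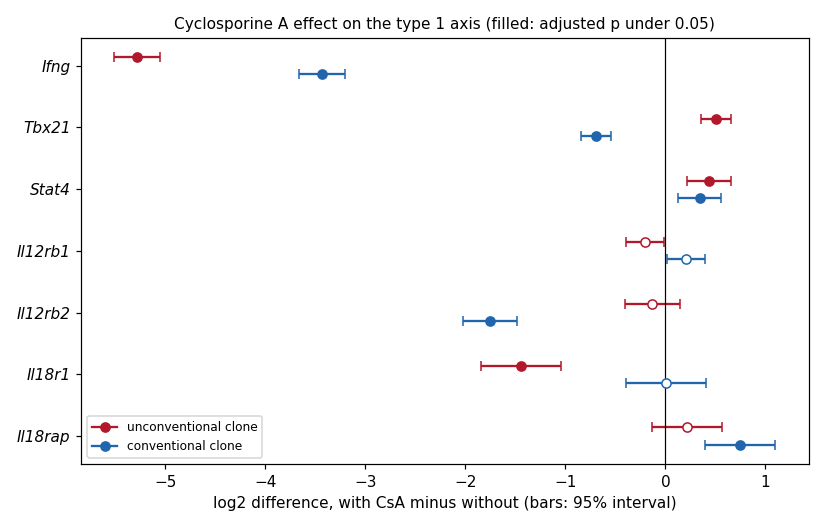
Effect of CsA on each type 1 axis gene (log2 difference, with CsA minus without) in the unconventional and the conventional clone, with 95% intervals from limma; filled points have an adjusted p under 0.05. Ifng is far below 0 in both clones, at -5.28 and -3.43, Il12rb2 is lowered in the conventional clone and Il18r1 in the unconventional clone.

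Of the IL-18 receptor chains, Il18r1 separated the clones most. Unconventional cells had 6.75, 7.28, 7.37 and 7.07 with CsA, against 7.83, 8.70, 8.96 and 8.74 without it. The groups did not overlap, and CsA lowered it by a change of -1.44 (SE 0.19, adjusted p = 9.27e-06), or 2.71-fold. Conventional cells had 3.47, 3.97, 3.93 and 3.31 with CsA, against 3.70, 3.69, 3.60 and 3.65 without it. All 8 of these arrays were under the lower quartile of gene means, and the change of 0.01 was not called (95% interval -0.39 to 0.41, adjusted p = 0.981). The clone difference was 3.45 (SE 0.19, adjusted p = 7.69e-12) with CsA and 4.90 (SE 0.19, adjusted p = 5.54e-14) with anti-CD3 alone. At so dim a conventional level the clone differences are lower limits, and a fall could hardly have been seen in the conventional clone, which bears on the difference of effects of -1.45 (SE 0.27, adjusted p = 0.000683).

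Il18rap ran the other way between the clones. Unconventional cells had 8.50, 9.09, 9.01 and 8.87 with CsA, against 7.97, 8.87, 9.00 and 8.76 without it, and the change of 0.22 was not called (95% interval -0.13 to 0.57, adjusted p = 0.436). It was -0.01 without unconventional anti-CD3 replicate 1. Conventional cells had 10.61, 10.95, 10.73 and 10.57 with CsA, against 10.04, 10.01, 9.91 and 9.91 without it, a rise of 0.75 (SE 0.17, adjusted p = 0.00133) with no overlap. The difference of effects was -0.53 (95% interval -1.02 to -0.03, adjusted p = 0.158), and it was called without unconventional anti-CD3 replicate 1 (-0.76, adjusted p = 0.00289). The unconventional clone was lower, with a clone difference of -1.85 (SE 0.17, adjusted p = 1.18e-08) with CsA and of -1.32 (SE 0.17, adjusted p = 1.78e-06) with anti-CD3 alone. The conventional clone thus carried more RNA of the accessory chain while its signal for the binding chain was under the lower quartile of gene means.

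Il18r1 and Il18rap are neighbours in the RefSeq order of genes, inside a cluster of IL-1 receptor family genes. The windows before their starts are shown because these adjacent genes differed between the clones in opposite directions. Both lie on the plus strand of GRCm38.p6, at chr1:40465302-40465551 and chr1:40515112-40515361, with GGAAA or its reverse complement in capitals.
Il18r1: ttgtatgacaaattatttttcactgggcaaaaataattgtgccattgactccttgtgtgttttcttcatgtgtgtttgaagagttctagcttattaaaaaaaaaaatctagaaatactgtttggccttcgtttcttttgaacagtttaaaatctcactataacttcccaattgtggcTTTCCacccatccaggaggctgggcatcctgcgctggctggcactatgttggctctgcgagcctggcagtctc
Il18rap: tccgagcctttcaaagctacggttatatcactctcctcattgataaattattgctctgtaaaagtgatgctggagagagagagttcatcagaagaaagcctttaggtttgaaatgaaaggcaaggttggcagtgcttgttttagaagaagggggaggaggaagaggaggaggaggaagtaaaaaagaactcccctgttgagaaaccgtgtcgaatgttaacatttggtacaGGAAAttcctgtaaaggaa
Each held 1 match to GGAAA, at positions -73 to -69 for Il18r1 and -19 to -15 for Il18rap, and none to the other 3 motifs. Il18r1 has further RefSeq starts, which are not shown.

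The genes around them showed that the clone difference at this cluster was not of 1 sign. Il1r2, the decoy receptor for IL-1, was higher in the unconventional clone, by 1.43 with CsA (adjusted p = 1.34e-08) and 1.88 with anti-CD3 alone (adjusted p = 3.26e-10). Map4k4, a kinase gene beyond it, differed by -2.72 and -3.00, and Mfsd9, on the other side, by -1.70 and -1.21, all 4 called. Il1rl2 and the sodium-proton exchanger genes Slc9a4 and Slc9a2 differed by 0.30 or less in size in both conditions. Of the 3 measured IL-1 receptor family genes besides the IL-18 receptor chains, none rose with CsA, 1 fell in the unconventional clone, beside 12.3% of all genes, and 2 fell in the conventional clone, beside 15.5%. The third, the shared accessory chain Il1rap, was not among these neighbours and says nothing of the cluster. It was lower in the unconventional clone, at -1.55 with CsA and -1.98 without. Around Ifng, the drug's large effect stood alone among measured neighbours. With CsA the unconventional clone changed by -0.45 in Iltifb (called), a dim IL-22 family gene, and by 0.14 or less in size (none called) in Mdm1, Rap1b, Dyrk2, Cand1 and Grip1. In the conventional clone Dyrk2 changed by -0.90, Mdm1 by -0.75 and Cand1 by -0.30 (all called), against the -3.43 of Ifng.

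**Figure D3:**
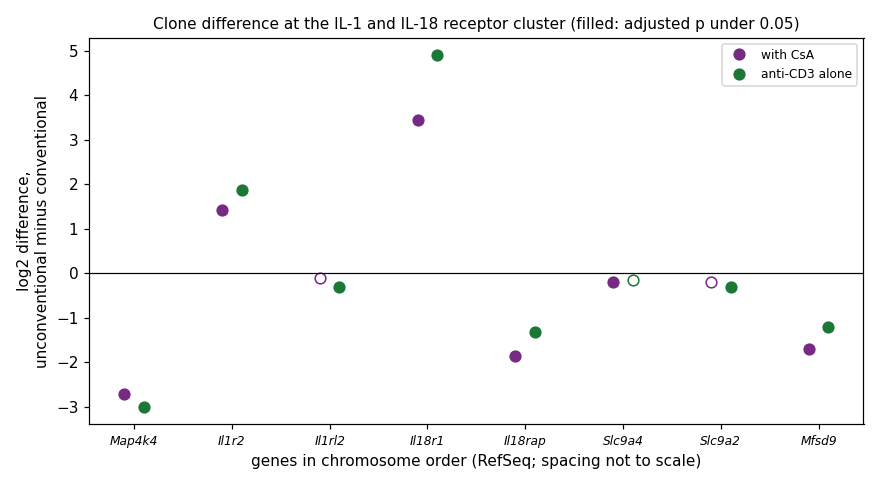
Clone difference (log2, unconventional minus conventional) with CsA and with anti-CD3 alone for Il18r1, Il18rap and the 3 nearest measured protein-coding genes on each side, in RefSeq order; filled points have an adjusted p under 0.05. Il18r1 stands at 3.45 and 4.90 and its neighbour Il18rap at -1.85 and -1.32.

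Across the 7 genes, CsA changed 4 of 7 in the unconventional clone (2 higher, 2 lower), where 24.9% of all genes were called, and 5 of 7 in the conventional clone (2 higher, 3 lower), where 31.4% were called. The difference of effects was called for 5 of 7, beside 16.3% of all genes. The clones differed in 7 of 7 with CsA (4 higher and 3 lower in the unconventional clone), beside 44.2% of all genes (21.3% higher), and in 6 of 7 with anti-CD3 alone (3 and 3), beside 42.0% (20.3% higher). The 4 arrays with and the 4 without CsA did not overlap for 4 of 7 genes in the unconventional clone, beside 27.2% of all genes, and for 5 of 7 in the conventional clone, beside 30.5%. Those 5 were not the 5 called there. They held Il12rb1, which was not called and whose groups touched at 9.14, and not Stat4, which was called. Arrays of the 2 clones did not overlap for 6 of 7 with CsA, beside 42.2%, and for 6 of 7 with anti-CD3 alone, beside 38.6%. The genes were chosen with earlier results known, so these shares describe them and are not a test. The count of rises in the conventional clone was 1 in place of 2 in the fit of its 8 arrays alone and without conventional anti-CD3 replicate 2, through the Stat4 call above. No common direction held over the axis. Ifng was the sole gene of the 7 with a called fall in both clones, and Stat4 the sole gene with a called rise in both.

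**Figure D4:**
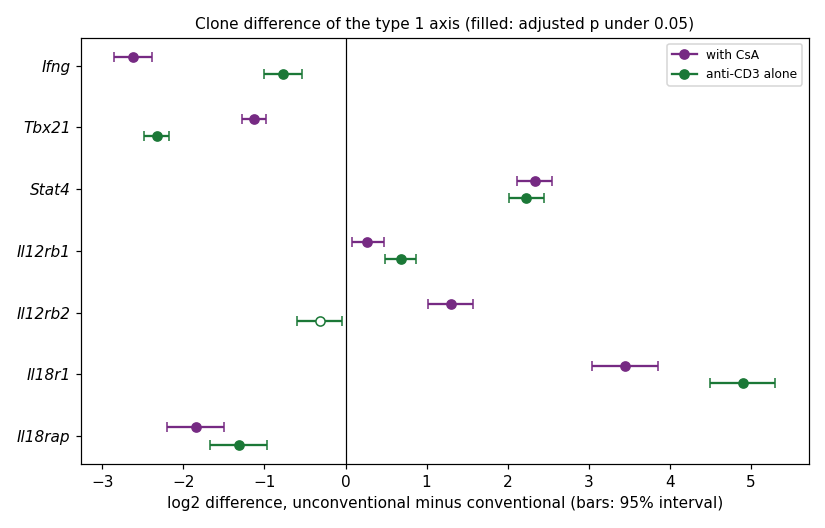
Clone difference of each type 1 axis gene (log2, unconventional minus conventional) with CsA and with anti-CD3 alone, with 95% intervals from limma; filled points have an adjusted p under 0.05. Stat4 and Il18r1 lie above 0 and Ifng, Tbx21 and Il18rap below 0 in both conditions, and the clone difference of Il12rb2 is called with CsA.

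Genes of the IL-12 family and IL-18 ligands and of a soluble inhibitor (the ligand list) were mostly dim in the clones. Il12a and Il12b, the 2 chains of IL-12, had group means between 3.90 and 4.61, and neither changed with CsA. Il27 and Il18bp, the soluble inhibitor of IL-18, lay between 5.50 and 5.75, also with no call in any contrast. Il18 was low, with 4.20 ± 0.18 and 3.46 ± 0.06 in the unconventional clone with and without CsA and 4.11 ± 0.18 and 3.57 ± 0.17 in the conventional clone (SD, n = 4), and it rose by 0.74 and 0.54 in them (adjusted p = 1.27e-05 and 0.000253). The exception was the RNA of Il23a, the chain specific to IL-23, and IL-23 itself was not measured. Il23a had 9.50 ± 0.23 and 12.15 ± 0.15 in the unconventional clone with and without CsA and 4.68 ± 0.35 and 8.02 ± 0.22 in the conventional clone (SD, n = 4). CsA lowered it by changes of -2.65 and -3.34 (adjusted p = 7.39e-11 and 1e-12), and it was higher in the unconventional clone by 4.82 with CsA and 4.13 without. Il23r, the receptor chain that pairs with Il12rb1 for IL-23, lay between 3.36 and 3.62. Ebi3, a chain of IL-27, fell in the unconventional clone (-0.99, adjusted p = 9.25e-05) and had a change of -0.32 in the conventional clone, not called. Of the 7 genes of this list, 1 rose and 2 fell in the unconventional clone, where 24.9% of all genes were called, and 1 rose and 1 fell in the conventional clone, where 31.4% were called.

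Among 17 measured genes of IL-12 and IL-18 receptor signalling, 5 rose and 5 fell with CsA in the unconventional clone, and 6 rose and 6 fell in the conventional clone. Over all genes 12.6% rose and 12.3% fell in the unconventional clone, and 15.9% rose and 15.5% fell in the conventional clone. The median changes of the list were 0.02 and 0.09, beside 0.02 over all genes in both. Jak2, the kinase that binds Il12rb2, was lowered in the conventional clone like Il12rb2 itself (difference of effects 1.34, adjusted p = 8.64e-09). It was at 8.02 ± 0.07 and 7.96 ± 0.12 in the unconventional clone with and without CsA (0.06, not called) and at 8.28 ± 0.06 and 9.56 ± 0.07 in the conventional clone (SD, n = 4; -1.28, SE 0.07, adjusted p = 1.6e-11). Its partner kinase Tyk2 rose by 0.42 and 0.34. Socs3, a feedback inhibitor of IL-12 and IL-6 family signalling, had -0.72 in the unconventional clone and -3.18 in the conventional clone (difference of effects 2.45, adjusted p = 1.42e-08). Il6st, the signalling chain of the IL-6 family, changed by 0.02 (not called) and -1.53. Il27ra, the IL-27 receptor chain, was higher in the unconventional clone, by 0.94 with CsA and 0.83 without.

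Gadd45g and Gadd45b link IL-12 and IL-18 to the p38 kinase pathway and to IFN-γ output, and Gadd45g was lowered in the unconventional clone. It had 7.49 ± 0.11 and 10.12 ± 0.43 in the unconventional clone with and without CsA (SD, n = 4; -2.63, SE 0.15, adjusted p = 8.87e-11). In the conventional clone it had 6.51 ± 0.16 and 6.84 ± 0.15 with and without CsA, and the change of -0.33 was not called. Its effects differed by -2.30 (SE 0.21, adjusted p = 1.78e-07), in the same direction as those of Ifng. Gadd45b changed by -1.25 and -1.73, both called. Its difference of effects had the opposite sign, at 0.49 (SE 0.13, adjusted p = 0.00976). Map2k6, a kinase of p38, rose by 1.78 in the unconventional clone and 1.26 in the conventional clone, and p38α itself (Mapk14) by 0.36 and 0.82. Sigirr, a negative regulator of the IL-1 and IL-18 receptor family, changed by 0.02 (not called) and 1.44, with a difference of effects of -1.42. The adaptor Myd88 was not called for CsA in either clone (0.05 and 0.09).

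Genes of the IFN-γ receptor and of its response fell more often than they rose with CsA in the conventional clone alone. Of 19 measured, 8 rose and 5 fell with CsA in the unconventional clone, where Ifng fell further, beside 12.6% and 12.3% of all genes. In the conventional clone 2 rose and 9 fell, beside 15.9% and 15.5%. Medians were 0.06 and -0.17, beside 0.02 over all genes in both. Effects were called higher in the unconventional clone for 7 of 19 and lower for 1, beside 8.51% and 7.78% of all genes. Irf1, an early target of IFN-γ, had 7.44 ± 0.13 and 6.79 ± 0.09 in the unconventional clone with and without CsA (SD, n = 4), a rise of 0.66 (SE 0.09, adjusted p = 2.12e-05). In the conventional clone it had 5.65 ± 0.12 and 7.06 ± 0.20 (SD, n = 4), which is -1.42 (SE 0.09, adjusted p = 2.93e-10). The effects differed by 2.07 (SE 0.13, adjusted p = 1.52e-09). The guanylate binding protein gene Gbp5 changed by -0.49 (not called) and -2.06, and the GTPase Irgm1 by 1.28 and 0.11 (not called). Gbp7 rose by 1.38 and 0.93. Socs1, the feedback inhibitor of IFN-γ signalling, changed by -1.06 and -1.43 (both called), and the IFN-γ-induced checkpoint ligand Cd274 by -0.92 and -1.25 (both called). Ifngr1, the ligand-binding receptor chain, rose by 0.58 in the unconventional clone and was not called in the conventional clone (0.05), and Ifngr2 was dim throughout, between 4.45 and 4.64.

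Between the clones, most of these response genes were lower in the unconventional clone: 10 of 19 with CsA (3 higher) and 14 of 19 with anti-CD3 alone (1 higher), beside 23.0% and 21.7% of all genes that were lower. Irgm1 differed by -0.94 with CsA and -2.10 without, Gbp7 by -1.48 and -1.94, and Irf8, a factor of the IFN-γ response, by -2.28 and -1.65. Irf1 was the opposite with CsA, at 1.80 (adjusted p = 2.96e-12), and -0.27 with anti-CD3 alone (adjusted p = 0.0244). Genes of this list without a probe set of a single symbol were not analysed here.

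**Figure D5:**
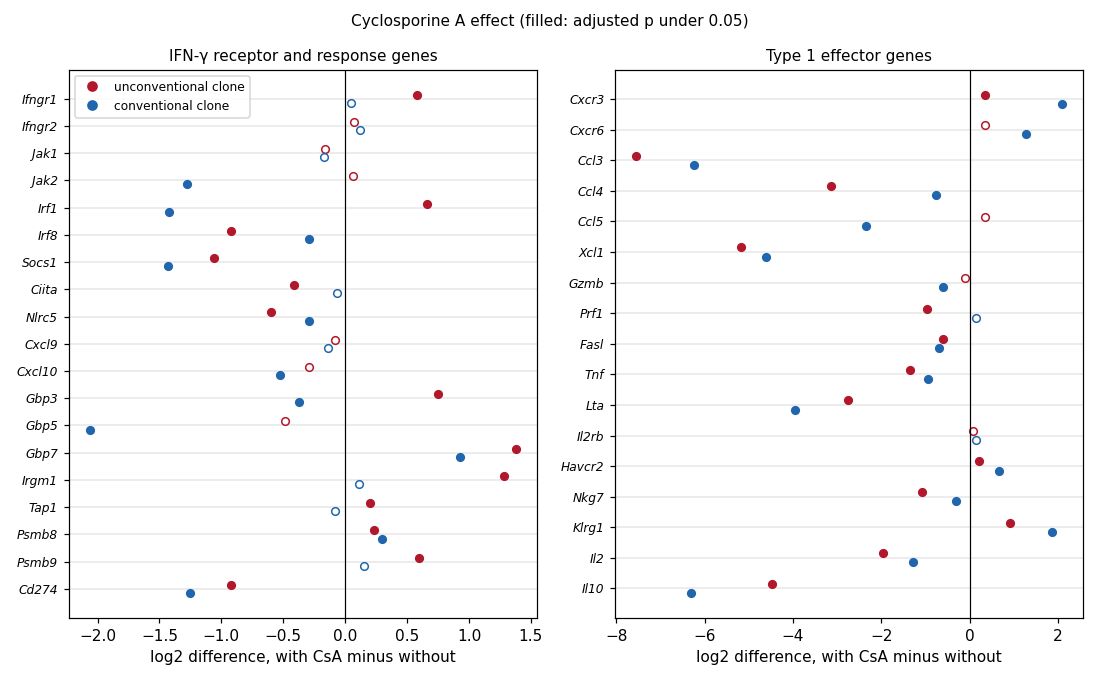
Effect of CsA (log2 difference, with CsA minus without) on 19 IFN-γ receptor and response genes (left) and 17 type 1 effector partners (right) in the unconventional and the conventional clone. Filled points have an adjusted p under 0.05, and the panels have different x ranges. Irf1 lies at 0.66 and -1.42, and Ccl3 at -7.55 and -6.25.

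Other transcription factors linked to T-bet or to Ifng, whatever the sign of the link, were partly divergent too. Of 19 measured, 7 rose and 2 fell with CsA in the unconventional clone (5 calls in place of 9 with median centring), beside 12.6% and 12.3% of all genes. In the conventional clone 8 rose and 5 fell, beside 15.9% and 15.5%. Prdm1, which encodes Blimp-1, moved like Tbx21, with a rise of 0.78 in the unconventional clone and a change of -0.52 in the conventional clone (difference of effects 1.30, adjusted p = 4.95e-08). Nfatc2, the gene of NFAT1, was at 7.29 ± 0.15 and 7.33 ± 0.25 in the unconventional clone with and without CsA, and at 8.55 ± 0.13 and 7.18 ± 0.05 in the conventional clone (SD, n = 4), a rise of 1.38 there (SE 0.10, adjusted p = 2.14e-09). Rel, an NF-κB subunit, fell in both, with changes of -0.28 and -0.89, and Runx1 rose by 0.72 and 0.81. Runx3, a partner of T-bet, rose by 0.50 in the unconventional clone, and its 0.15 in the conventional clone was not called. Zeb2, a T-bet target of effector CD8 T cells, was lower in the unconventional clone, with clone differences of -2.96 with CsA and -3.74 with anti-CD3 alone, and so was Hlx, which cooperates with T-bet, at -2.60 and -1.89. Eomes, the other T-box factor of CD8 T cells, was dim in all groups (3.95 to 4.46).

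A list of 17 measured type 1 effector partners held chemokine, cytokine and receptor genes too, Il10 among them. With CsA 3 rose and 10 fell in the unconventional clone, beside 12.6% and 12.3% of all genes. In the conventional clone 4 rose and 11 fell, beside 15.9% and 15.5%. The medians of the list were -0.96 and -0.69, beside 0.02 over all genes in both. The chemokines Ccl3 and Xcl1 changed by -7.55 and -5.18 in the unconventional clone and by -6.25 and -4.61 in the conventional clone, and Il10 by -4.47 and -6.31. Lta, the lymphotoxin gene, changed by -2.75 and -3.96 (both called). Ccl4 fell further in the unconventional clone, and Ccl5 fell in the conventional clone. Ccl4 changed by -3.14 and -0.75 (difference of effects -2.38, adjusted p = 2.42e-06), and Ccl5 by 0.36 (not called) and -2.35 (difference of effects 2.71, adjusted p = 3.09e-07). Cxcr3, a chemokine receptor and T-bet target, rose in both, by 0.35 and 2.10, and it was lower in the unconventional clone, with clone differences of -3.82 with CsA and -2.06 without. Klrg1, a marker of terminal effector cells, was lower there too, at -4.99 and -4.05. Of these 17 genes, 12 were lower and 3 higher in the unconventional clone with CsA, beside 23.0% and 21.3% of all genes. With anti-CD3 alone 11 were lower and 1 higher, beside 21.7% and 20.3%.

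Genes of opposing programmes gave a mixed picture. Of 16 measured, 3 rose and 5 fell with CsA in the unconventional clone, where 24.9% of all genes were called, and 4 rose and 4 fell in the conventional clone, where 31.4% were called. Gata3, the type 2 factor, moved opposite to Tbx21, changing by -0.47 in the unconventional clone and 0.94 in the conventional clone (difference of effects -1.42, SE 0.14, adjusted p = 2.98e-07). Il4 and Il5 stayed between 3.39 and 3.76. Il13, another type 2 cytokine gene, had 5.39 ± 0.17 and 6.63 ± 0.60 in the conventional clone with and without CsA (SD, n = 4). Its change was -1.24 there (SE 0.19, adjusted p = 2.58e-05) and -0.37 (not called) in the unconventional clone. The difference of effects for Il13 was 0.87 (adjusted p = 0.032). The type 17 cytokine genes were high in unconventional cells without CsA. Il17a had 4.99 ± 0.17 and 8.46 ± 0.23 in the unconventional clone with and without CsA, and 5.22 ± 0.23 and 5.38 ± 0.11 in the conventional clone (SD, n = 4). Its change was -3.47 (SE 0.12, adjusted p = 5.69e-14) in the unconventional clone and -0.16 (not called) in the conventional clone, and Il17f changed by -3.12 and -0.33 (both called). With CsA the clones' Il17a was not called different (-0.23, adjusted p = 0.131). Tgfbr2, a receptor for TGF-β, rose by 0.84 and 1.33, and its signalling factor Smad3 changed by -1.06 (called) and -0.19 (not called), with a difference of effects of -0.88. Bcl6, the factor of follicular helper cells, rose by 1.29 and 2.29, and Il4ra fell by changes of -1.39 and -1.37.

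The genes whose profiles over the 16 arrays were most like that of Ifng, by Pearson's r among 3367 genes whose group means ranged over at least 1 log2 unit, were Igf1 (r = 0.995), a growth factor gene, Furin (0.989), a proprotein convertase, Celf2 (0.989), an RNA-binding protein, the metalloproteinase Mmp13 (0.984) and Ttc39c (0.981). Igf1 had group means of 5.84 and 9.97 in the unconventional clone with and without CsA and 7.54 and 10.46 in the conventional clone, the same order of groups as Ifng. For Tbx21 the nearest were 4930523C07Rik (0.994), Rbl2 (0.989) and Tmsb10 (0.984), and for Stat4 Tmem176a (0.992), F13a1 (0.991) and Smarcd2 (0.991). Il12rb2 was nearest to Adam19 (0.966), Hivep1 (0.964) and Neto2 (0.941), and Il12rb1 to Lyplal1 (0.933), Mllt1 (0.916) and Smyd4 (0.915), a looser fit. Il18r1 was nearest to Dennd5a (0.991), Pkp4 (0.991) and Zfp979 (0.990), and Il18rap to the kinase gene Styk1 (0.991), Ggcx (0.983) and Slc35b4 (0.982). No member of the axis was among these nearest genes of another. These correlations rest on 4 groups of arrays from 2 clones, and are given as a description.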

How the data were processed

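Log2 expression values per probe set on 16 Affymetrix whole-transcript arrays were taken in the form the authors deposited; the log2 scale was read from the range of the values. The submitters' processing notes name RMA, GCOS and Partek 6.2 without saying what each did; the genome build is not given in the sources used here. Of 28853 probe sets, 21789 had 1 symbol in the platform annotation and gave 19938 genes, the probe set with the highest mean being used where a gene had several. limma 3.58.1 in R 4.3.3 was fitted with 1 mean per group over all arrays (12 residual degrees of freedom), with two-sided tests and Benjamini-Hochberg adjustment over all genes. Alternatives were quantile, cyclic loess or median normalization, brighter genes alone, the mean of all probe sets of a gene, a trended robust variance, array weights, the compared groups alone, the replicate number as a block and leaving out each array. Steps were tested on simulated data. The precision is limited by the number of arrays. Members, gene lists and tests were chosen with earlier results of these data known. Named genes were the 7 members, the up to 3 largest changes of each list and contrast, the ligands, the 3 measured neighbours on each side, and the genes most like each member; a few other list genes were named after their values were seen. Promoter letters are from RefSeq (GRCm38.p6), where 6 of 7 members had an entry.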

Additional observations from a re-analysis of the deposited data

Results flagged for a closer look

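The effect of CsA differed between the clones for 5 of the 7 genes, beside 16.3% of all genes. By the interaction contrast of limma, unconventional minus conventional, these were Ifng (-1.85), Tbx21 (1.21), Il12rb1 (-0.41), Il12rb2 (1.62) and Il18r1 (-1.45). The value of Il12rb1 lost its call in 12 of 24 alternatives, and that of Il18r1 sets a fall against a background level. In 28 sets of 4 arrays (7 genes in 4 groups), 0 arrays lay beyond Dixon's critical value, although chance alone flags about 1 in 20 such sets. Unconventional anti-CD3 replicate 1 was nonetheless the lowest of its group for 5 of 7 genes. Unconventional CsA replicate 1 and conventional anti-CD3 replicate 4 were the lowest of theirs for 4 of 7 each. The same count over all genes was not made, so these counts describe the members alone.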

How the results depend on the processing

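Ifng kept its direction and call in every alternative run: its change was -5.38 to -5.13 in the unconventional clone and -3.48 to -3.35 in the conventional clone (25 alternatives each), the difference of effects -2.04 to -1.69 (24), and the clone difference -2.70 to -2.46 with CsA and -0.81 to -0.62 with anti-CD3 alone (25 each). Tbx21 kept all 5 calls. Sign changes were limited to values that were not called: Il18r1 in the conventional clone (0.00 by quantile and -0.05 by cyclic loess normalization, -0.06 with array weights, -0.09 to 0.13 leaving out 1 array), Il18rap in the unconventional clone (-0.01 to 0.34) and the Stat4 difference of effects (-0.02 to 0.20), both leaving out 1 array. The lowest of these came without unconventional anti-CD3 replicate 1 and conventional anti-CD3 replicate 4. Array weights called the Il18rap difference of effects (-0.62) and the Il12rb1 change in the unconventional clone (-0.25), and that of Il12rb1 was also called without unconventional anti-CD3 replicate 1 (-0.27). Without conventional CsA replicate 2 the Il12rb1 change in the conventional clone was called (0.26). The Il12rb1 difference with CsA was lost by cyclic loess (0.19). Il12rb2 with anti-CD3 alone was called without unconventional anti-CD3 replicate 1 (-0.45) or conventional anti-CD3 replicate 2 (-0.43). The cause was not tested. Members called higher in the conventional clone numbered 1 to 3 leaving out 1 array and 1 in the fit of the compared groups alone, against 2. Among brighter genes alone, where fewer genes are tested, the ligand list had 1 call in place of 2 in the conventional clone, and so had the IL-1 receptor list. For the ligand list, the difference of effects had 2 calls in place of 1 with median centring, cyclic loess, brighter genes, trend and robust variance, array weights and the replicate block (0 to 2 leaving out 1 array), and the clone difference with CsA 1 in place of 2 with quantile, cyclic loess, brighter genes and the block (1 to 2 leaving out 1 array). The IL-1 receptor list had 1 call in place of 0 for the difference of effects with median centring and brighter genes (0 to 1 leaving out 1 array). Median centring left 5 transcription factor calls in place of 9 in the unconventional clone. It also moved the split over all genes, to 1842 higher and 2751 lower for CsA in the unconventional clone (2518 and 2452 otherwise) and to 4316 and 3025 for the clones with anti-CD3 alone (4048 and 4328 otherwise). The deviations of same-numbered arrays correlated above 0.1 in 11 of 24 pairs, and 13 of 24 correlated best with their own number, a hint of shared variation from the data and not from the design, so the arrays were fitted as unpaired. With the replicate number as a block, of the members' calls that of the Il12rb1 difference of effects (-0.41, adjusted p = 0.054) was lost.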
